A study of Mus musculus with 6 samples.

Results

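The genes described here build and sense cholesterol and fatty acids. The 29 members are a list of gene symbols set without a threshold on these values, though with earlier results of the data known, and comprise enzymes of the mevalonate and sterol steps, the SREBP (sterol regulatory element-binding protein) transcription factors with the proteins that hold or carry them, and enzymes of fatty acid synthesis and desaturation. Of the 29, 26 had a value under their own gene identifier, and all 26 had one in every library, against 11750 of 15441 genes in the series. The RNA came from the whole ipsilateral cerebral cortex of C57/BL6J mice after photothrombosis, in which illumination of the brain after an injection of the dye Rose Bengal clots the cortical vessels. Control mice had a sham operation without illumination and were taken 7 days later, and stroke mice were taken on day 1, 3, 7, 14 or 28. Each of the 6 groups was 1 poly(A), strand-specific library from the pooled RNA of 3 male mice aged 6 to 8 weeks at operation. No difference below has a replicate check, no p-value is given, and values are described only by their size. Age when the RNA was taken rose with the day after operation, so age and time after stroke cannot be told apart. The values are FPKM, fragment counts that the authors scaled to transcript length and library size, and the depth of each library is unknown. In whole cortex, fewer cells of a type and less RNA per cell cannot be told apart.

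Cholesterol hardly crosses the blood-brain barrier, and the brain makes its own. Acetyl-CoA is turned into mevalonate and then into isoprenoid units, which are joined to squalene, closed into lanosterol and trimmed to cholesterol. When sterol in the endoplasmic reticulum is low, the escort protein Scap carries the SREBP precursors to the Golgi apparatus, where proteases release the active factors, and the Insig proteins hold Scap back when sterol is plentiful. Oligodendrocytes, which build myelin, and astrocytes, which supply neurons, are known as the main makers of cholesterol in the brain.

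The libraries were checked against markers of the cells that cortex holds. The summed FPKM of 8 neuronal markers was 1743 in sham, 1638 on day 1, 1268 on day 3, 1322 on day 7, 1241 on day 14 and 1540 on day 28. The sum of the 11 oligodendrocyte markers with a value was 2001, 2456, 1935, 2250, 2182 and 1753 in the same order, led by Mbp. The 7 astrocyte markers summed to 857 in sham and to between 884 and 1512 after stroke. Gfap weighed heavily in this, at 85.8 FPKM in sham and between 150 and 698 after stroke. On day 1 Gfap and Aldh1l1 were above sham, while Aqp4, Slc1a2, Slc1a3, Gja1 and Aldoc were below it. The 8 microglia and macrophage markers summed to 121 in sham and to between 144 and 870 after stroke, highest on day 7. Mobp, Pdgfra and Gpr17 had no value, and neither did any of 4 adipocyte markers. Transcripts of the hypothalamic peptides Avp and Oxt were not listed in sham and were listed in all 5 post-stroke libraries, at up to 18.9 and 9.28 FPKM. With Ttr, Folr1 and Pmch, the 5 of 6 markers of choroid plexus and hypothalamus with a value summed to 281 in sham and to between 188 and 559 after stroke. The 3 of 5 markers of oligodendrocyte precursors with a value summed to between 10.6 and 19.7 FPKM, and 3 of endothelium to between 4.02 and 11.9, with Cldn5 listed on day 1 alone.

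The genes of cholesterol synthesis were slightly above sham in most cases on day 1 and below it in most cases from day 3 on. Their median differed from sham by much less than 2-fold, while Mvk on day 7 and Lss on day 14 were past 2-fold (log2 ratios of -1.09 and -1.005). Among the 17 enzymes of the mevalonate and sterol steps with a value, 5 were below sham on day 1, 15 on day 3, 15 on day 7, 12 on day 14 and 15 on day 28. Over all genes compared, those at 1 FPKM or more in either library, 48.5%, 46.6%, 46.2%, 42.6% and 46.2% were below sham on the same days. The median log2 ratio of the 17 enzymes to sham was 0.17 on day 1, -0.29 on day 3, -0.26 on day 7, -0.34 on day 14 and -0.16 on day 28, against 0.01, 0.03, 0.03, 0.10 and 0.03 for all genes. These 5 comparisons share the sham library, so they are not independent of each other. Ratios are of FPKM + 0.1.

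**Figure D1:**
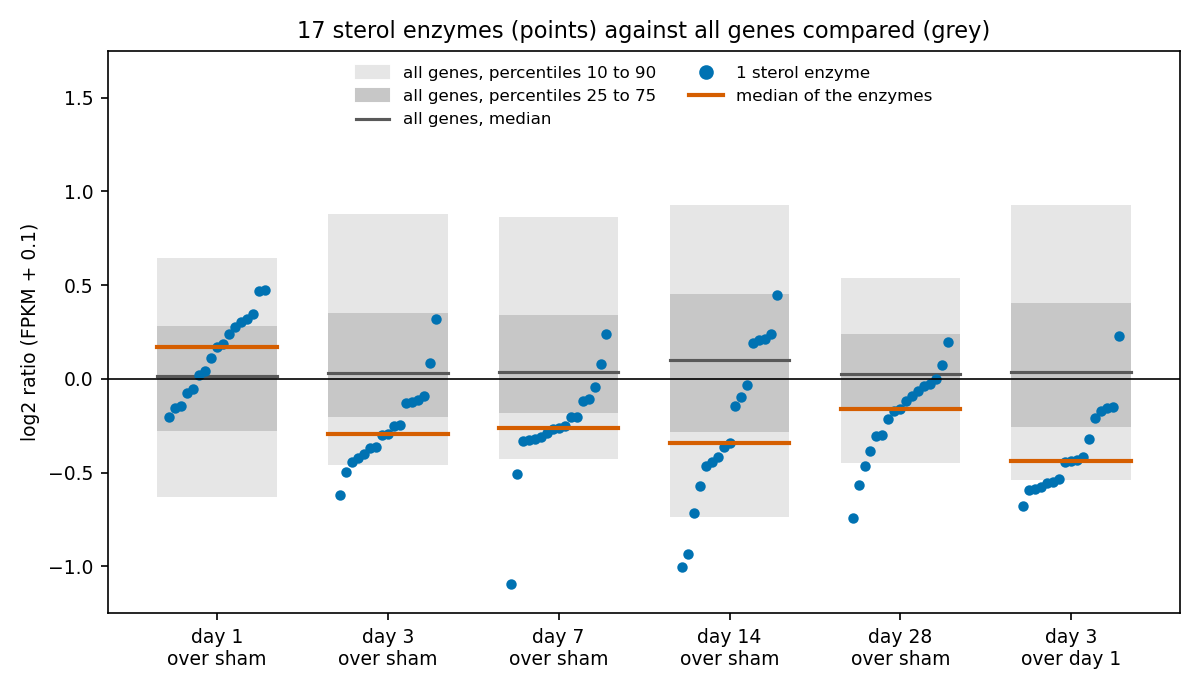
Log2 ratio of FPKM + 0.1 (vertical axis) for 6 comparisons of 2 libraries (horizontal axis), with each of the 17 sterol enzymes as a point, their median in orange and the percentiles of all genes compared in grey. The enzymes' median lies above that of all genes on day 1 over sham and below it in the other comparisons, while single enzymes spread over much of the grey range.

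Few members passed a 2-fold difference. No member was at a log2 ratio of 1 or more at any day, where 5.11%, 8.54%, 8.53%, 8.97% and 3.68% of all genes were at days 1, 3, 7, 14 and 28. At a log2 ratio of -1 or less was 1 of 26 on day 7 (Mvk) and 1 on day 14 (Lss), against 2.12% and 6.92% of all genes. On days 1, 3 and 28 no member was, against 4.48%, 2.53% and 2.79% of all genes. These shares include genes at lower levels than most members. At 5 FPKM or more in either library, 4.95%, 5.63%, 5.80%, 9.05% and 3.03% of genes differed by 2-fold in either direction on the 5 days. Of the 24 or 25 members at that level, 1 did on day 7 and 1 on day 14. From their lowest to their highest library the members differed by between 1.25-fold (Srebf2) and 2.49-fold (Mvk), with a median of 1.62-fold, and 3 of 26 (11.5%) differed by 2-fold or more. Among the 11565 genes at a level in every library the median was 1.66-fold, and 32.2% differed by 2-fold or more. These genes were not matched to the members by level.

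The comparison of day 3 with day 1 does not use the sham library. It was not among the planned results and reuses the day 1 and day 3 values given above, so it is no independent check. In this comparison 23 of the 26 members were lower on day 3, with a median log2 ratio of -0.40. Of all genes 47.4% were lower, and their median was 0.04. All 7 enzymes of the mevalonate steps and 9 of the 10 of the squalene and sterol steps were lower. Sqle had the lowest ratio (-0.68), followed by Pmvk (-0.59), Nsdhl (-0.59) and Insig1 (-0.59). The members that were higher were Ebp (0.23), Acaca (0.25) and Srebf1 (0.65). The day 1 library was the highest of the 6 for 15 of 26 members (57.7%), against 15.9% of the 11565 genes at a level in every library. The marker sums also differed between these libraries. The sum of choroid plexus and hypothalamus markers was 512 FPKM on day 1 and 188 on day 3, with Pmch at 26.2 and 5.13, and that of microglia and macrophages was 144 and 472. The neuronal and oligodendrocyte sums were lower on day 3 and the astrocyte sum was higher, and the part of all these in the members' values was not tested.

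**Figure D2:**
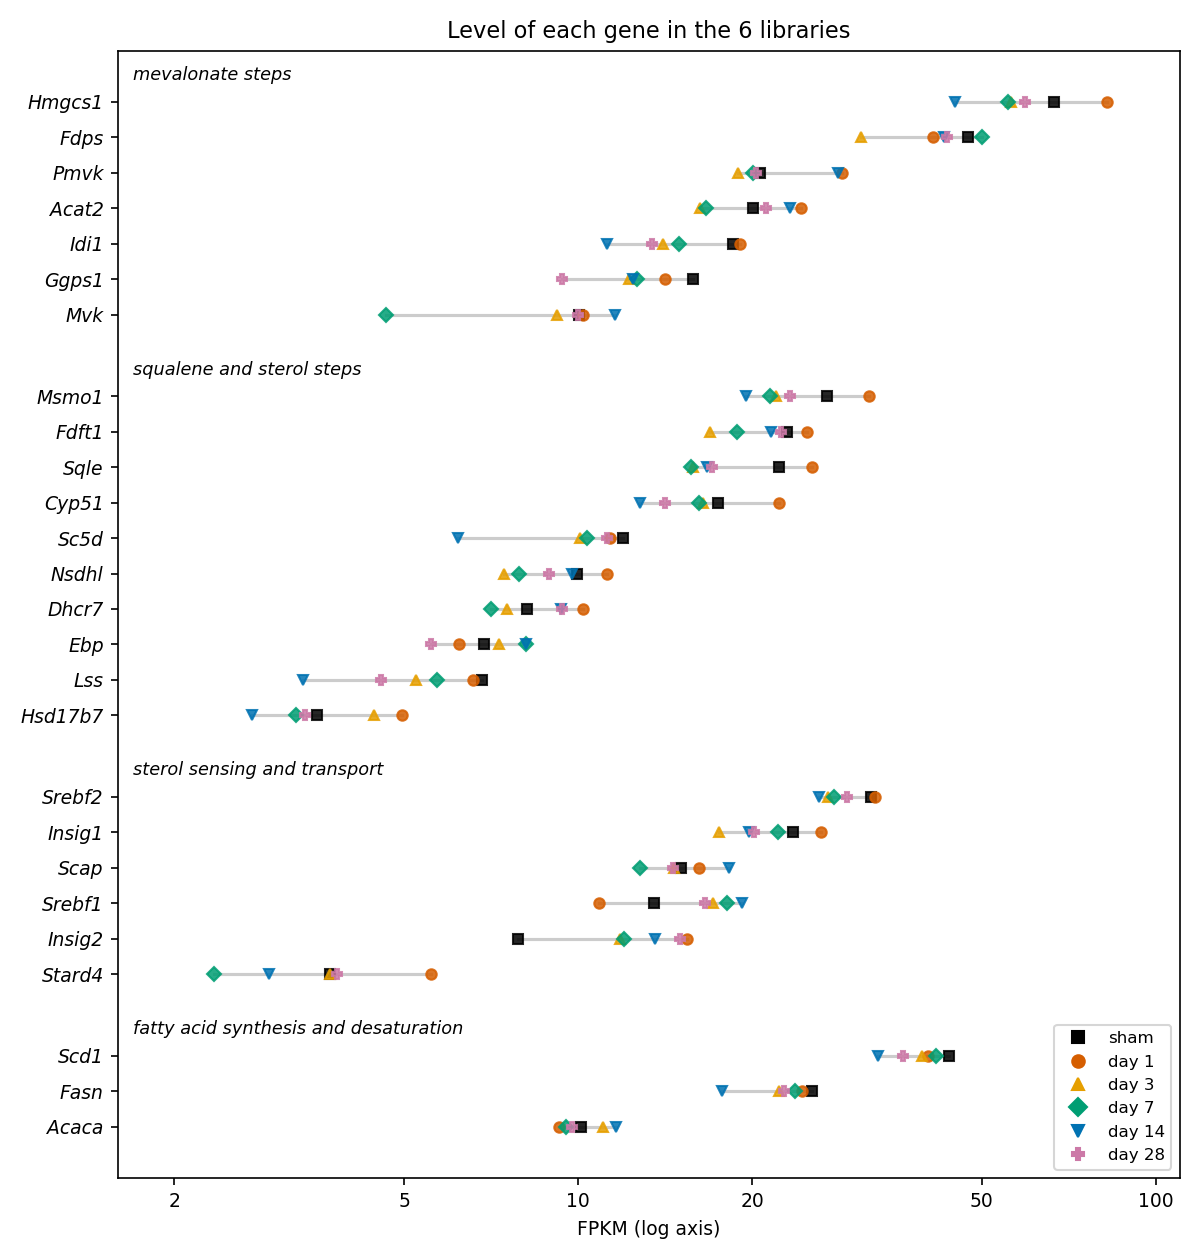
FPKM (log axis) of the 26 members with a value in each library, 1 symbol per library and 1 row per gene, with the genes grouped by role. The symbol of day 1 is the rightmost in 15 rows, and Hmgcs1 on day 1 is the highest value of all, at 82.5 FPKM.

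Among the enzymes of the mevalonate steps, Hmgcs1, which makes HMG-CoA, had the highest level. Its FPKM was 66.7 in sham, 82.5 on day 1, 56.0 on day 3, 55.5 on day 7, 44.9 on day 14 and 59.3 on day 28. Day 1 was thus above sham and all later libraries were below it, with a log2 ratio of 0.31 on day 1 and -0.57 on day 14. Acat2, the cytosolic thiolase that joins acetyl-CoA units, was at 20.1, 24.3, 16.3, 16.7, 23.3 and 21.1 FPKM in the same order. It was lower than sham on day 3 and day 7 only, and between 79.7% and 85.9% of its value lay inside its own annotated span, since its locus was joined to the near-identical Acat3.

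Mvk, the kinase that phosphorylates mevalonate, had an FPKM of 10.04 in sham, 10.2 on day 1, 9.18 on day 3, 4.65 on day 7, 11.6 on day 14 and 10.01 on day 28. The day 7 library stood apart from the other 5, at a log2 ratio to sham of -1.09. Its single end event was also lowest on day 7, at 3.33 FPKM against 5.35 to 7.50 in the others. Transcripts of Mvk that held the 38-base exon at chr5:114444652-114444689 of mm10 were listed at 3.59, 5.46, 4.94, 0.821, 4.08 and 5.71 FPKM in the order of the libraries. Transcripts that skipped it were listed at 6.45, 4.73, 4.24, 3.33, 7.50 and 4.31, so on day 7 both forms were at their lowest and the form with the exon lay further from the others. Pmvk, the next kinase, was at 20.7, 28.6, 18.9, 20.04, 28.2 and 20.3 FPKM, with day 1 and day 14 above the rest.

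Idi1, the isomerase of the isoprenoid units, was at 18.5 FPKM in sham, 19.1 on day 1, 14.0 on day 3, 15.0 on day 7, 11.2 on day 14 and 13.4 on day 28. It was lower than sham in each library from day 3 on, with a log2 ratio of -0.72 on day 14. Fdps, which makes farnesyl diphosphate, was at 47.4, 41.2, 30.9, 49.99, 42.9 and 43.6 FPKM, but its locus was joined to Rusc1 and only 39.4% to 64.1% of this lay inside its own span. Inside the span it was lowest on day 3, at 12.2 FPKM against 22.9 to 27.5 in the other libraries. Ggps1, which makes the geranylgeranyl group used to anchor proteins in membranes and so leads away from sterols, was highest in sham at 15.8 FPKM and lowest on day 28 at 9.39, a log2 ratio of -0.74.

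Among the enzymes from squalene on, Sqle was lower than sham in every library from day 3 on. This oxidase, a rate-limiting step of the sterol branch, had an FPKM of 22.3 in sham, 25.4 on day 1, 15.8 on day 3, 15.7 on day 7, 16.7 on day 14 and 17.04 on day 28. Its 4 later libraries lay close together, with log2 ratios between -0.51 and -0.39. Fdft1, which makes squalene, was at 23.0, 24.9, 16.9, 18.8, 21.5 and 22.4 FPKM, and was closer to sham again on day 14 and day 28 (log2 ratio -0.10 and -0.04). Msmo1, which removes methyl groups from the sterol ring, was at 27.0, 31.9, 22.0, 21.5, 19.6 and 23.3 FPKM, and Cyp51, the lanosterol demethylase, at 17.5, 22.3, 16.4, 16.2, 12.8 and 14.1. Both were highest on day 1 and lowest on day 14.

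Lss, which closes squalene epoxide into lanosterol, was at 6.81 FPKM in sham, 6.57 on day 1, 5.24 on day 3, 5.70 on day 7, 3.34 on day 14 and 4.56 on day 28. Every post-stroke library was below sham, and day 14 was at a log2 ratio of -1.005. Sc5d, a sterol desaturase near the end of the pathway, was at 11.95, 11.3, 10.1, 10.4, 6.20 and 11.2 FPKM, so that day 14 alone stood apart, at -0.94. The day 14 library held 79330 events against 87466 to 93931 in the others, and its ratio to sham was lower for longer transcripts. Across 12038 genes Spearman's rho between that ratio and the length of the longest transcript was -0.41, and across the 26 members, which share these libraries, it was -0.52. With each library corrected for this trend, Lss was at -0.75 on day 14 and above sham on day 1 (0.12), and 15 of the 17 enzymes were below sham at that day rather than 12.

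The remaining sterol enzymes did not share a course. Nsdhl, a sterol dehydrogenase, was above sham on day 1 and below it at every later day. Its FPKM was 9.97, 11.2, 7.43, 7.92, 9.76 and 8.92 in the order of the libraries. Hsd17b7, a sterol ketoreductase, was above sham on day 1 and day 3 (4.95 and 4.43 against 3.54 FPKM) and lowest on day 14 (2.73). Ebp, the sterol isomerase, was the one enzyme of the 17 above day 1 on day 3, with 6.89, 6.22, 7.30, 8.14, 8.14 and 5.57 FPKM. Dhcr7, which carries out the last reduction on one route to cholesterol, was at 8.15, 10.2, 7.53, 7.05, 9.33 and 9.37 FPKM, with start events at different positions from library to library.

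**Figure D3:**
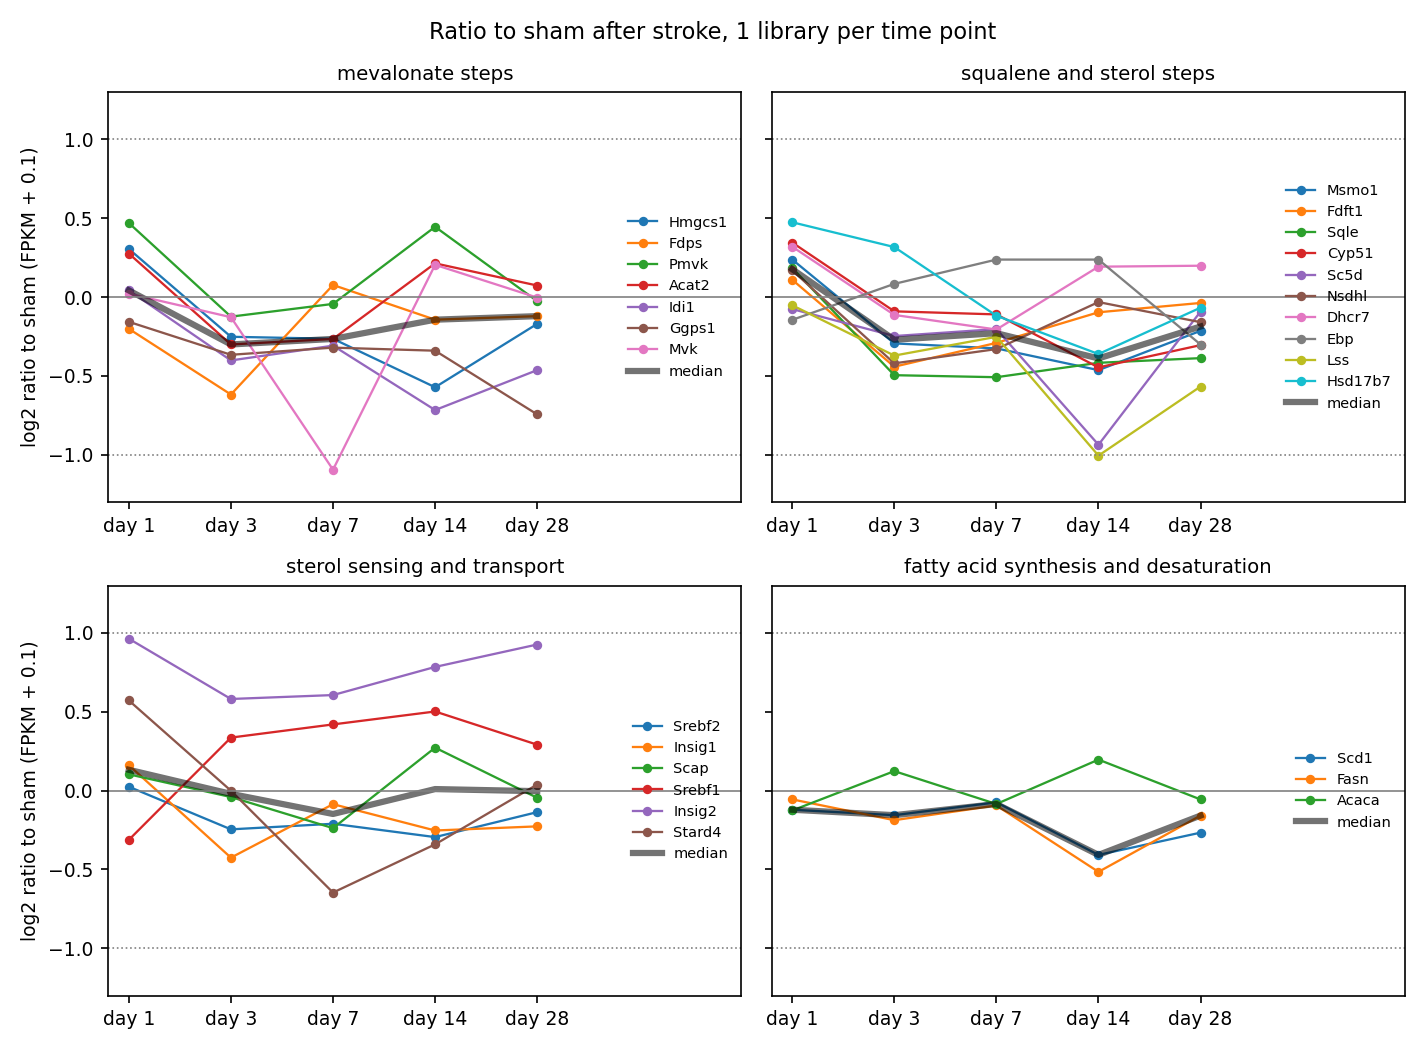
Log2 ratio of FPKM + 0.1 to sham (vertical axis) by day after stroke (horizontal axis), 1 line per gene in 4 groups by role, with the group median as a thick grey line and dotted lines at a 2-fold difference. Mvk on day 7 and Lss on day 14 reach the lower line, and Insig2 runs closest to the upper one.

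The genes of sterol sensing were not alike. Srebf2, whose product drives the genes of cholesterol synthesis, kept within 26.1 and 32.6 FPKM. This was the smallest fold between libraries among the members (1.249, next to 1.253 for Acaca, whose start events varied more). Srebf1, whose product favours genes of fatty acid synthesis, was at 13.5 FPKM in sham, 10.9 on day 1, 17.1 on day 3, 18.1 on day 7, 19.2 on day 14 and 16.6 on day 28. It was thus lowest in the library where 15 members were highest, and above sham in each of the other 4. Its start events differed from each other over time. The downstream start at 60210465 on chromosome 11 was at 5.81 FPKM in sham, 1.80 on day 1, 6.18 on day 3, 7.76 on day 7, 6.17 on day 14 and 9.47 on day 28. The upstream start at 60220604 was at 2.36, 3.11, 4.49, 5.19, 3.65 and 1.68, so the upstream start was the higher of the pair on day 1 and in no other library.

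Insig1 and Insig2, the pair of proteins that retain Scap, went apart from day 3 on. Insig1, itself a known target of the SREBP factors, was at 23.6, 26.4, 17.5, 22.2, 19.8 and 20.1 FPKM, below sham in all libraries from day 3. Insig2 was at 7.85 FPKM in sham, 15.4 on day 1, 11.8 on day 3, 12.003 on day 7, 13.6 on day 14 and 15.0 on day 28, and all 5 post-stroke libraries were above sham, at log2 ratios of 0.96, 0.58, 0.61, 0.78 and 0.93. No other member was above sham in every post-stroke library. At day 1 a downstream start event, listed in no other library, held 5.04 FPKM of this. The upstream start alone, which lies at the RefSeq start, was at 7.47, 10.2, 11.5, 11.3, 13.5 and 14.9 FPKM, with log2 ratios of 0.44 on day 1 and 0.98 on day 28.

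**Figure D4:**
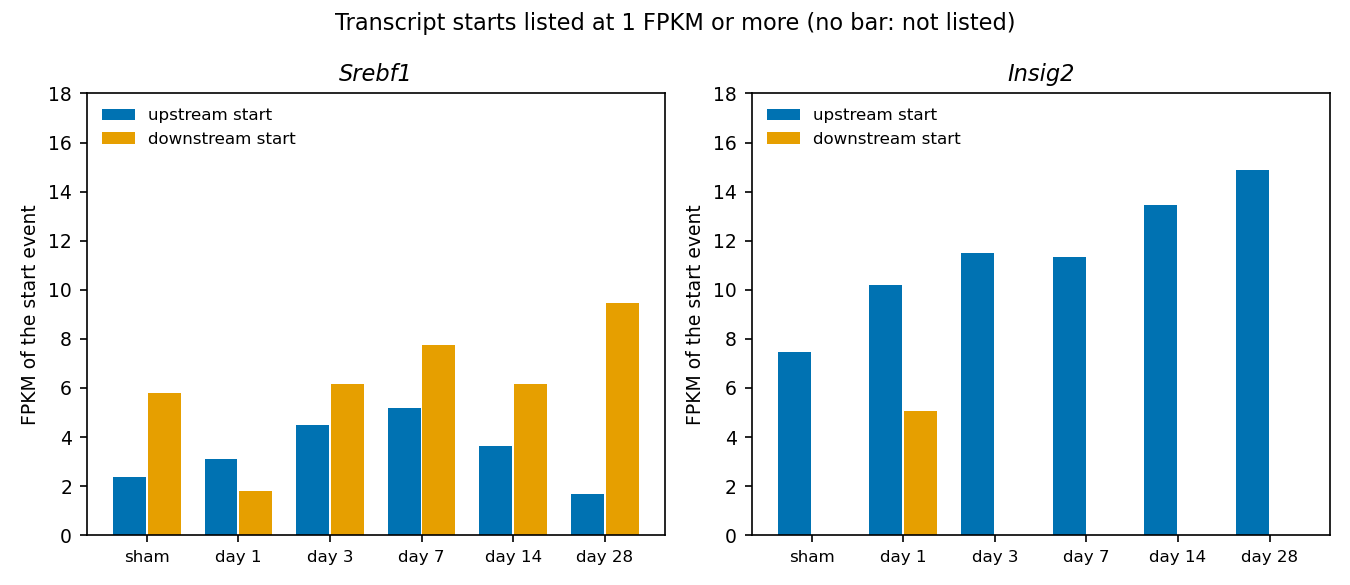
FPKM of the start events of Srebf1 and Insig2 (vertical axis) in each library (horizontal axis), with blue bars for the upstream and orange bars for the downstream start of each gene. The downstream start of Srebf1 is lowest on day 1 (1.80 FPKM), and the upstream start of Insig2 is above its sham value of 7.47 in every post-stroke library.

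Scap, the escort protein, ranged from 12.8 FPKM on day 7 to 18.2 on day 14, with sham at 15.1. Stard4, which moves cholesterol between membranes, was at 3.72 FPKM in sham, 5.58 on day 1, 3.72 on day 3, 2.34 on day 7, 2.92 on day 14 and 3.82 on day 28. Its day 1 and day 7 values lay on either side of sham, at log2 ratios of 0.57 and -0.65.

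The 3 genes of fatty acid synthesis with a value had median log2 ratios to sham of -0.12, -0.16, -0.09, -0.41 and -0.16 at days 1, 3, 7, 14 and 28. Fasn, the fatty acid synthase, was at 25.4, 24.4, 22.3, 23.8, 17.7 and 22.7 FPKM, and Acaca, which makes its substrate malonyl-CoA, was between 9.28 and 11.6. The start events of Acaca were lower and varied more. Its start at 84179527 was at 1.91 FPKM in sham, 0.285 on day 1, 0.0545 on day 14 and between 3.32 and 3.47 on the other days. That at 84129672 was at 1.05 in sham, 0.0654 on day 14 and 0.0693 on day 28. These starts lay 15911 and 65766 bases from the nearest RefSeq start. Scd1, a desaturase that makes oleate, was at 43.9, 40.4, 39.4, 41.7, 33.1 and 36.5 FPKM. Fasn and Scd1 were lowest on day 14, at log2 ratios of -0.52 and -0.41, and all 3 genes were below sham on day 1, day 7 and day 28. Fasn and Acaca have the longest transcripts of the members. Corrected for transcript length they were above sham on day 1 (0.22 and 0.15), and on day 14 Fasn was at -0.24 and Acaca at 0.48.

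Of the 3 members without a value, Scd2, the main desaturase of the brain, was traced by position. The locus with its start and end at those of Scd2 carried the identifier of the microRNA gene Mir5114 in the tables. Its end event was at 242 FPKM in sham, 242 on day 1, 254 on day 3, 250 on day 7, 184 on day 14 and 218 on day 28, which is above any other member, while its start event was at 170 on day 1 and equal to the end event in the other libraries. For Tm7sf2, a sterol reductase, the locus was joined to and named for Zfpl1, and a start event inside its span was at between 5.08 and 7.27 FPKM. Mvd, the decarboxylase of the mevalonate steps, had no event over its span on its strand, which says nothing of its level.

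Beside the members, a list of 33 other genes of these pathways was read, of which 31 had a value and 28 or 29 were compared at each day. Of these, 16, 16, 13, 18 and 18 were below sham at days 1, 3, 7, 14 and 28, which is 57.1%, 57.1%, 46.4%, 62.1% and 64.3%, against the 48.5%, 46.6%, 46.2%, 42.6% and 46.2% of all genes given above. Acss2, which makes acetyl-CoA from acetate, was below sham in every post-stroke library, at 15.0 FPKM in sham, 14.9 on day 1, 11.0 on day 3, 11.6 on day 7, 13.2 on day 14 and 12.2 on day 28. Acly, which makes it from citrate, ranged from 28.4 FPKM on day 14 to 36.3 on day 28. Elovl5, an elongase of polyunsaturated fatty acids, was above sham in every post-stroke library, at 20.4 FPKM in sham and between 24.8 and 32.9 after it, with log2 ratios between 0.28 and 0.68. Mbtps2, which encodes a protease that releases the SREBP factors, was at a log2 ratio of -1.60 on day 14 (1.48 against 4.71 FPKM), and Fads6 was not listed there. Elovl1, an elongase of long fatty acids, was higher by 2-fold or more on day 7 and day 14 (10.6 and 11.0 against 4.90 FPKM). It did not hold 1 direction, with 8.31 FPKM on day 1, 3.94 on day 3 and 3.69 on day 28.

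The promoters of the members were read for the short sequences that SREBP factors and their partners are known to bind. Upstream bases of RefSeq starts in GRCm38.p6 are shown for 4 genes: Hmgcs1 and Acat2, the only members whose window held the core of the sterol element, Insig1, which held a near form, and Insig2, the one member above sham in every post-stroke library. Each run reads 5′ to 3′ along the gene's strand up to the base before the start, with the sterol core CACNCCAC, the E-box CACGTG and the NF-Y box CCAAT in capitals on either strand.
Hmgcs1, chr13:119690101-119690350, plus strand: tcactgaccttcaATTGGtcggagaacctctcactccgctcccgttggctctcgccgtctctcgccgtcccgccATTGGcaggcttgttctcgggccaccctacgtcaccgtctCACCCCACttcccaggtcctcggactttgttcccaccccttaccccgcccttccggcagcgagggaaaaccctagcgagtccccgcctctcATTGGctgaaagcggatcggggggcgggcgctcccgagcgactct
Acat2, chr17:12960726-12960975, minus strand: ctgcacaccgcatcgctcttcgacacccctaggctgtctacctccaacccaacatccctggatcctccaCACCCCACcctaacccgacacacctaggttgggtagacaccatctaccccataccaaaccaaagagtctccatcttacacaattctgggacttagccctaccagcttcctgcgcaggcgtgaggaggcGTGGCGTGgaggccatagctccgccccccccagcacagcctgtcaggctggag
Insig1, chr5:28071162-28071411, plus strand: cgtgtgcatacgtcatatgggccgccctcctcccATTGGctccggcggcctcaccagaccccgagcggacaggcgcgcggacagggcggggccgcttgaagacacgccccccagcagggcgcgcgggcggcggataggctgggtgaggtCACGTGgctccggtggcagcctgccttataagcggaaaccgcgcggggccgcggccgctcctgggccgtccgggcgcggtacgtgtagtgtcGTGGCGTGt
Insig2, chr1:121328025-121328274, minus strand: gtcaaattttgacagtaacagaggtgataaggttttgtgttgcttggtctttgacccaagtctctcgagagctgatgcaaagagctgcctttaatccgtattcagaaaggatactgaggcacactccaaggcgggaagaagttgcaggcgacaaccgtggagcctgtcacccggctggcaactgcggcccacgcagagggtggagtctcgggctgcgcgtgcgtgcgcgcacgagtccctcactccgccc
Hmgcs1 held the core CACCCCAC at -136 from its start, between NF-Y boxes at -176 and -45. The Insig2 run held none of the capital sequences. The 4 genes were picked for their letters or their level, and most members lacked the sterol core whatever their level, so nothing about the levels is read from the runs.

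In windows of 300 bases, 250 before and 50 after each RefSeq start, 23 of the 29 members were matched, with 31 windows. Both strands were searched, and a member was counted if any of its windows held the letters. CCAAT was found for 20 of 23 members (87.0%), against 42.7% of 9752 genes with a level, and stood in 37.4% of all 32851 windows. GGGCGG, the Sp1 box, was found for 19 of 23 (82.6%) against 68.6% of those genes and 35.7% of windows. CACGTG was found for 5 members (21.7%) against 11.7% and 7.15%. CACCCCAC was found for 2 (8.70%) against 3.78% and 2.87%, and with any base at the fourth position, which includes the former, for 3 (13.0%) against 7.56% and 6.24%. Insig2 was counted for CCAAT by a second RefSeq start at 121332589, which is not the start with the events shown above. These are matches of letters and not bound sites.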

How the data were processed

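RNA of 3 mice per group was sequenced as 6 libraries, on average to 33.6 M reads each as the labels state. Per the labels the submitters' processing used Trimmomatic 0.30, HISAT2 2.0.1 and HTSeq 0.6.1 on mm10, and the assembler and annotation are not given in the sources used here. The authors deposited FPKM per transcript start, transcript end and splicing event, leaving out events at 0. Events listed for several exons were counted once. The value of a gene was the largest of its summed starts, its summed ends and any single event, which can exceed the gene's own level where loci were joined. Members and lists were chosen with earlier results of these data known, and among the other pathway genes and markers those with values in the text were picked after their values were seen.

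Genes at 1 FPKM or more in either library were compared by log2((FPKM + 0.1)/(sham FPKM + 0.1)) and counted at a log2 ratio of 1 or more in size, with unlisted genes taken as 0. The pseudocount understates ratios of low genes. The planned design assumed FPKM per gene. With 1 library per group no test was run. Alternatives were pseudocounts of 0.01 and 1, no filter or 5 FPKM, starts or ends alone, events inside the annotated span, rescaling to the median ratio of genes at 5 FPKM, correction for transcript length over 20 bins and a lower threshold of 1.5-fold. Gene positions came from GENCODE vM21 and promoters from RefSeq. The genes named are the members, the other pathway genes and the cell type markers. Of 124 symbols in the lists, 123 matched an identifier. Some genes of the pathway list are counted but not reported here by name. Scripts ran in Python 3.11.15 with pandas 2.3.3 and numpy 2.4.6 and were tested on simulated data. The FPKM files keep no counts, so intervals for counting error cannot be given.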

Additional observations from a re-analysis of the deposited data

How the results depend on the processing

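Each of 15 results (the members higher, the members lower and the members' median log2 ratio, at each day) was recomputed under 11 alternatives, except that the medians do not depend on the threshold, and 142 of 160 values stayed within 1.5 times the count or 0.1 of the median given above. Most of these 142 were counts of 0 that stayed 0, so the share says little about stability. Leaving out Acat2, Fdps and Dhcr7, chosen after seeing the data, moved none of the 15, and 20 of 23 members were then lower on day 3 than on day 1. That count was 19 of 23 with summed ends, 22 of 26 rescaled to the median ratio and 24 of 26 corrected for transcript length. The other 18 values are counts of few genes. As reported, 1 member was lower on day 7, 1 on day 14 and 0 in the other 8 counts. With a pseudocount of 1 there were 0 on day 7 and 0 on day 14. With summed starts 1 member was lower on day 1, 2 on day 7 and 4 on day 14. With summed ends 0 were lower on day 7, 0 on day 14, and 1 was higher on day 28. Rescaled to the median ratio, 2 were lower on day 14, and corrected for transcript length, 0. At a threshold of 1.5-fold, 1 member was higher on day 1, 1 on day 7, 1 on day 14 and 1 on day 28, and 1 was lower on day 3, 2 on day 7, 3 on day 14 and 1 on day 28, since the threshold is smaller. For the rest the cause was not tested. Mvk on day 7 was at a log2 ratio of -0.97 with a pseudocount of 1, -1.09 with summed starts, -0.93 with summed ends and -1.12 corrected for transcript length. Lss on day 14 was at -0.85, -1.27, -0.91 and -0.75 in the same order. Both genes thus stayed below sham, and they passed the threshold under some of these settings only. The side of 0 on which each median lay did not change under any of these alternatives. No paired analysis was possible because each group is 1 library. No library could be left out within a group for the same reason.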

Other observations

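Genes of cholesterol removal and storage were read from a list of 9, of which 7 had a value. Ch25h and Nr1h3 had none, which says nothing of their level. Of these 1, 5, 6, 7 and 5 were above sham at days 1, 3, 7, 14 and 28. Those below it made up 85.7%, 28.6%, 14.3%, 0% and 28.6% of the 7. Over all genes compared, 48.5%, 46.6%, 46.2%, 42.6% and 46.2% were below sham. Abca1, the transporter that loads cholesterol onto lipoproteins, was at 3.00 FPKM in sham, 1.65 on day 1, 13.6 on day 3, 16.4 on day 7, 7.94 on day 14 and 5.37 on day 28. Apoe, the main lipoprotein of the brain, was at 716, 287, 1386, 855, 3534 and 1212 FPKM in the same order. Both were lower than sham on day 1 and higher at every later day. Soat1, which esterifies cholesterol for storage, was at 3.02, 3.04, 6.39, 6.78, 3.38 and 3.28 FPKM, and Mylip, at 4.92, 4.19, 8.97, 9.26, 6.11 and 4.92. Soat1 and Mylip were highest on day 3 and day 7. The microglia and macrophage marker sum was 472 and 870 FPKM on those days, against 121 in sham. The part of those cells in these values was not tested. Abcg1, Nr1h2 and Lpcat3 varied in direction. All were above sham on day 14, at log2 ratios of 0.40, 0.55 and 0.54. Their lowest ratios were -0.37 for Abcg1 on day 1, -0.76 for Nr1h2 on day 7 and -0.94 for Lpcat3 on day 3.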
